A study of Homo sapiens with 9 samples.

Results

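The regions described here are peaks of γH2AX at the ends of protein-coding genes. A peak on one of the 22 autosomes was taken as an end peak when it overlapped the window of 500 bp to each side of the end of a GENCODE protein-coding gene, and no window of 500 bp around the start of one. Over 8 peak lists, 6581 of 213253 autosomal peaks met this rule, where a place found in several lists counts once in each. A gene end was counted as having a peak when at least 1 end peak reached its window, and 4705 of 19111 autosomal gene ends (24.6%) had one in at least 1 list.

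The lists come from γH2AX ChIP-seq of a human B-lymphocyte line, named GM07027 in the study and GM09027A in the sample labels. The 4 groups were untreated cells and cells kept for 24 h with 0.1 μg/mL aphidicolin (APH), 2 mM hydroxyurea (HU) or 200 μM methyl methanesulfonate (MMS), with 2 replicates each. All are from this 1 line, and all 8 lists were called against the same input. The number of reads behind each list is unknown, so a difference in depth and a difference in signal cannot be told apart in the number of peaks. Fold enrichments of different lists are set side by side below under the same limit. The lists held 4797 and 4343 peaks without treatment, 17680 and 14016 with APH, 79950 and 69977 with HU and 12216 and 10488 with MMS, and they stopped at nearly the same −log10 p (lowest values from 3.00 to 3.01).

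γH2AX is histone H2AX phosphorylated by the ATR, ATM and DNA-PK kinases at stalled replication forks and DNA breaks. APH inhibits the replicative DNA polymerases, HU depletes deoxynucleotides, and MMS alkylates DNA bases. At the end of a protein-coding gene the transcript is cleaved and polyadenylated after a hexamer such as AATAAA, while RNA polymerase II goes on beyond the end before it is released. R-loops, which are RNA paired to its DNA template, are known to form at such terminators. Neighbouring genes are convergent when they are transcribed towards each other, so that their ends face one another or overlap.

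The sequences at a few ends are given first because the ends found in the most lists are described below. They are read from hg38 in the direction of transcription. The first set holds the last 30 bases of 6 genes whose ends had peaks in 5 or more lists, followed by the facing ends of the convergent genes TLCD3A and GEMIN4 and of PHAF1 and B3GNT9. Capitals mark AATAAA or, where it is absent, ATTAAA. They lie at chr5:181193924-181193953 for TRIM7, chr21:46569986-46570015 for DIP2A, chr9:991703-991732 for DMRT3, chr17:439978-440007 for RFLNB, chr9:465230-465259 for DOCK8, chr21:46665095-46665124 for PRMT2, chr17:742939-742968 for TLCD3A, chr17:744421-744450 for GEMIN4, chr16:67148515-67148544 for PHAF1 and chr16:67148104-67148133 for B3GNT9.
TRIM7: atgaaaatgaaactatgagctgtctttgga
DIP2A: tacttAATAAAttatagactttaaaatcta
DMRT3: ctctagaaaaaAATAAActaaggagacgag
RFLNB: tttaacAATAAAttatctgaaaaaacaaaa
DOCK8: agatgtaataagaattgcaagctaaatgtt
PRMT2: ttgatttttATTAAAttttattgaaatata
TLCD3A: acggtgATTAAAttgcactaacattcccaa
GEMIN4: aaaaagcattacatggtacgtataaccccc
PHAF1: gctgttgctgggatgtttgtattaaggtaa
B3GNT9: gaccaaaatATTAAAaatgggataaaatta

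In the last 50 bases of the gene, read in the direction of transcription, AATAAA was present at 58.5% of all 19111 ends and ATTAAA without AATAAA at 13.3%, which is 71.8% with either. Among ends with a peak the share with either was 63.6% and 69.9% in the untreated lists, 74.0% and 71.5% with APH, 74.0% and 75.3% with HU, and 70.4% and 76.2% with MMS. These shares lie on both sides of that of all ends, and no test was made. DOCK8 is one of the ends whose AATAAA lies in these 50 bases but before the 30 that are printed.

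Beyond the ends of TRIM7 and IQSEC3, the peaks of every list with a peak there had a stretch in common. In TRIM7 this stretch lies 444 to 730 bp beyond the end, at chr5:181193194-181193480, and is shared by the peaks of all 8 lists. It overlaps an exon of the antisense lncRNA gene TRIM7-AS2 and no exon of a protein-coding gene. In IQSEC3 it lies 467 to 751 bp beyond the end, at chr12:178922-179206, in an intron of the lncRNA gene IQSEC3-AS1, and is shared by 5 lists. Capitals mark the shared stretch, and the lower case bases are its flanks of 6 and 7 bases.
TRIM7: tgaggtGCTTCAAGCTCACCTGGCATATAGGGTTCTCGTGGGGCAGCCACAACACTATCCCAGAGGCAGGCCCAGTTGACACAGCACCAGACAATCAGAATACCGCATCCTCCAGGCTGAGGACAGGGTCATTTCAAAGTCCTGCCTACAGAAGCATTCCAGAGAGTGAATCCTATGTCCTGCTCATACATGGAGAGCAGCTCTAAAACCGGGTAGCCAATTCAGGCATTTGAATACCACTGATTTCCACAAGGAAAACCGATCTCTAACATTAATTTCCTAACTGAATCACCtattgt
IQSEC3: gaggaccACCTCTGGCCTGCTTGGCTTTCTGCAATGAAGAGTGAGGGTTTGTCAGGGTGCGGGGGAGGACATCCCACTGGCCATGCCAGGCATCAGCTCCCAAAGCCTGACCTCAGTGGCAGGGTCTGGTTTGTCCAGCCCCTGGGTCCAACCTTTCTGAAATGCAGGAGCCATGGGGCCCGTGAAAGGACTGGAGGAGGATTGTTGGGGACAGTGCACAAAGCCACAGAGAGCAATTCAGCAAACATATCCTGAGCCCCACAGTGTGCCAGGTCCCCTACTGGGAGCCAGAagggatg
The TRIM7 stretch with its flanks had a GC content of 48.2% and 4 CpG dinucleotides, and the IQSEC3 stretch with its flanks 58.5% and 2.

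The first comparison asked how often peaks lay at gene ends in each condition. End peaks numbered 134 and 88 in the untreated lists, 375 and 276 with APH, 2778 and 2421 with HU, and 292 and 217 with MMS. As a share of all autosomal peaks of the list, they made up 2.80% and 2.03% without treatment, 2.12% and 1.97% with APH, 3.48% and 3.46% with HU, and 2.39% and 2.07% with MMS. Both HU lists lay above the other 6, while the APH and MMS values fell within or just below the range of the untreated lists. The mean share was 2.42% ± 0.545 without treatment, 2.05% ± 0.109 with APH, 3.47% ± 0.0105 with HU and 2.23% ± 0.226 with MMS (SD, n = 2 each). Treated lists together exceeded untreated lists by 0.165 percentage points (exact permutation test of 6 lists against 2, two-sided, p = 0.893, adjusted p = 0.945 over the 9 tests made). When peaks below a fold enrichment of 3 were left out, the difference turned to −2.13 points (exact permutation, p = 0.0357), on 10 to 31 end peaks in each list other than HU.

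Counted over genes, 0.748% and 0.487% of all ends had a peak in the untreated lists (143 and 93 ends), 2.07% and 1.52% with APH (396 and 291), 15.7% and 13.7% with HU (3003 and 2615), and 1.68% and 1.21% with MMS (321 and 231). Every treated list was above both untreated lists. The mean was 0.617% ± 0.185 without treatment, 1.80% ± 0.388 with APH, 14.7% ± 1.44 with HU and 1.44% ± 0.333 with MMS (SD, n = 2 each), which is 2.91, 23.8 and 2.34 times the untreated mean. For each treatment alone the exact permutation test gave p = 0.333, the smallest that 2 lists against 2 can give. For the 6 treated lists together the difference was 5.36 percentage points (exact permutation, two-sided, p = 0.143, adjusted p = 0.184). When equal numbers of the strongest peaks were taken from each list, the difference was 0.121 points (exact permutation, p = 0.679), so a difference of treated from untreated lists as a whole was not detectable at equal peak numbers. The HU lists then had a peak at 1.12% and 0.942% of ends, above the other 6 lists, which lay between 0.487% and 0.691%.

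The second comparison asked whether gene ends held more peaks than their length gives. The expected number was computed for each list from the widths of its peaks and the 2756 Mb of assembled autosomal bases. The ratio of observed to expected end peaks was 2.58 and 1.90 without treatment, 2.04 and 1.91 with APH, 2.76 and 2.82 with HU, and 2.44 and 2.11 with MMS. All 8 lists lay above 1, with a geometric mean of 2.29 (log2 1.20 ± 0.23, SD over lists; two-sided exact sign-flip permutation over lists, p = 0.00781, which is the smallest possible with 8 lists, adjusted p = 0.0176). The sign-flip tests take the 8 lists as independent, while all share 1 input and come in replicate pairs, so their p-values may be too small.

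Much of this excess was shared by the surroundings of the ends. When the expected number was computed within 1 Mb bins, so that each peak stayed in its own megabase, the ratio was 1.30 and 1.02 without treatment, 1.15 and 1.16 with APH, 1.34 and 1.33 with HU, and 1.34 and 1.26 with MMS. The mean log2 ratio was then 0.30, and all 8 lists remained above 1 (p = 0.00781 in the same permutation test). Within bins of equal GC content the ratio stayed between 1.56 and 2.48, and within chromosomes between 1.68 and 2.35.

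Gene starts gave another picture. Peaks at starts that reached no end window numbered 48 and 39 without treatment, 126 and 88 with APH, 888 and 841 with HU, and 70 and 60 with MMS. The ratio of observed to expected start peaks was 0.946 and 0.864 without treatment, 0.705 and 0.625 with APH, 0.905 and 1.00 with HU, and 0.602 and 0.601 with MMS. Within 1 Mb bins it was between 0.327 and 0.474 in the 8 lists. Ends exceeded starts in all 8 lists, by 2.99 times in the geometric mean (log2 1.58 ± 0.26, SD; exact sign-flip permutation, p = 0.00781, adjusted p = 0.0176). With windows of 1 kb the log2 difference was 0.74, against 1.58 with 500 bp. The ratio at starts was then above 1 in all 8 lists, between 1.05 and 1.75, and that at ends between 1.97 and 2.66. Whether starts lie above or below the expectation thus depends on the width of the window, while ends stayed above starts. Few peaks reached both kinds of window, between 3 and 119 per list, and these are in neither count. An end with a start close by can hardly hold an end peak under this rule, and 6.46% of ends had a protein-coding start within 1 kb.

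**Figure D1:**
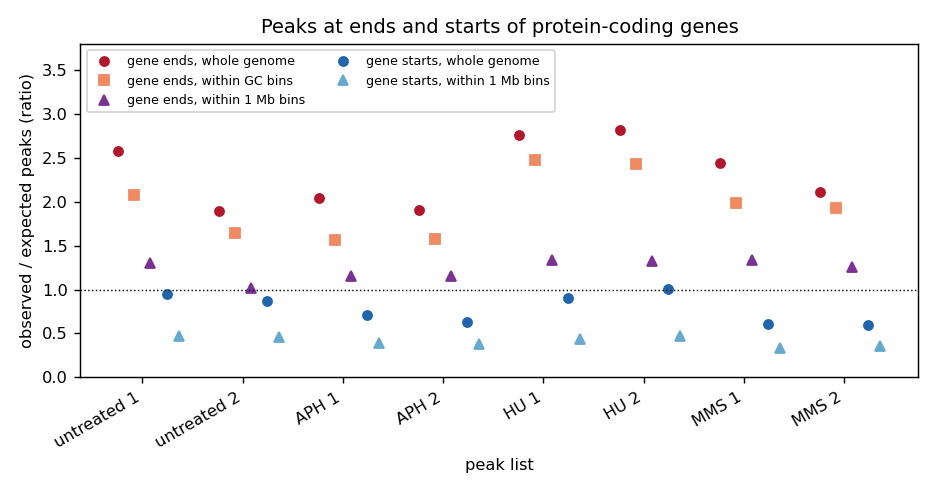
Ratio of observed to expected peaks (y axis, 1 is the expectation, dotted) in each of the 8 peak lists (x axis), for windows around gene ends and gene starts, with the expected number over the whole autosomal genome, within GC bins or within 1 Mb bins. Ends lie at 1.90 to 2.82 over the whole genome and at 1.02 to 1.34 within 1 Mb bins, and starts lie at or below 1.00 apart from rounding. All values are for windows of 500 bp to each side, and with windows of 1 kb the starts lay above 1 over the whole genome.

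The surroundings were also measured around ends that stand alone. Peak centres were counted in steps of 1 kb around 7562 ends with no other protein-coding end or start within 10 kb. Relative to the mean density of the list over the genome, the density within 1 kb of the end was 1.72 and 1.68 without treatment, 1.40 and 1.78 with APH, 2.11 and 2.10 with HU, and 1.52 and 1.57 with MMS. In the gene, from 10 kb to 1 kb before the end, it was 1.39 and 1.30 without treatment, 1.47 and 1.68 with APH, 1.92 and 1.98 with HU, and 1.90 and 1.75 with MMS. From 1 to 10 kb beyond the end it was 1.91 and 1.77, 1.87 and 1.78, 2.18 and 2.21, and 1.65 and 1.70 in the same order. The density within 1 kb of the end lay above both flanks in APH replicate 2 alone, so these isolated ends were not the centre of a narrow maximum in the other 7 lists. Both untreated lists, both APH lists and both HU lists were denser beyond the end than inside the gene, and both MMS lists were denser inside. These are descriptions with no test. Single steps of the untreated lists rest on few peaks, down to 6 centres.

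**Figure D2:**
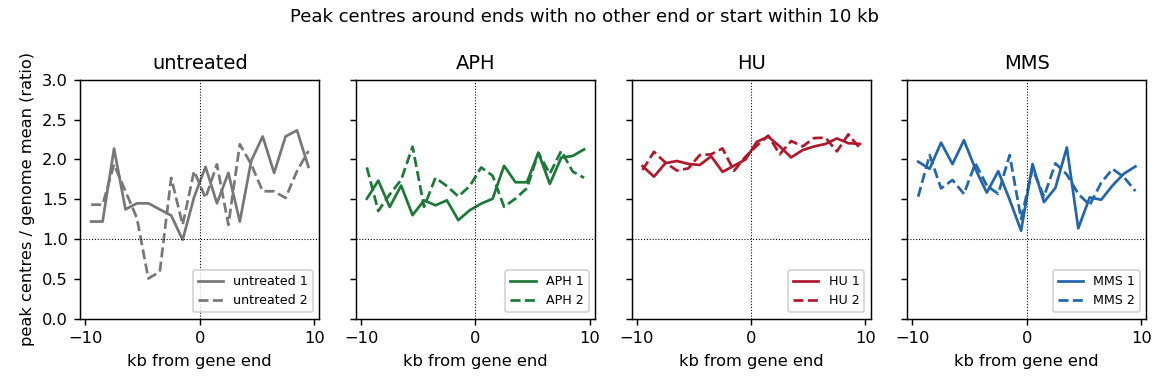
Density of peak centres relative to the genome mean of each list (y axis, ratio) by distance from the gene end in kb (x axis, positive beyond the end), for 7562 ends with no other end or start within 10 kb. Solid lines are replicate 1 and dashed lines replicate 2; the HU lists stay between 1.78 and 2.31 and the densities within 1 kb of the end are 1.40 to 2.11.

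The share of ends with a peak varied with base composition and gene density, which is given as a description with no test. Of 5 equal classes by GC content of the 1 kb around the end, that of 46.7% to 53.8% GC had the highest share of ends with a peak in every list. In that class 1.62% and 1.15% of ends had a peak without treatment, 4.60% and 3.38% with APH, 24.1% and 23.2% with HU, and 3.17% and 2.09% with MMS. In the class with the least GC, below 36.1%, the shares were 0.183% and 0.105%, 0.235% and 0.209%, 7.04% and 4.94%, and 0.262% and 0.602%. The class with the most GC fell back again, to 12.3% and 12.2% with HU and 0.654% and 0.235% without treatment. By the number of gene ends within 500 kb, the share was highest in the class of 17 to 29 ends in 6 lists. In APH replicate 2 this class tied at 1.96% with the class of 11 to 17 ends, and in MMS replicate 2 the latter was highest. In the densest class, of 29 to 71 ends, the share was below that of the class of 17 to 29 ends in all 8 lists, at 19.3% and 19.05% with HU, and below the share of all ends in APH replicate 2 and both MMS lists. In the class of genes over 90.9 kb, 9.65% and 8.08% of ends had a peak with HU, against 19.8% and 17.0% of the ends of genes of 7.77 to 18.9 kb. The windows of all ends were 500 bp to each side whatever the length of the gene.

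**Figure D3:**
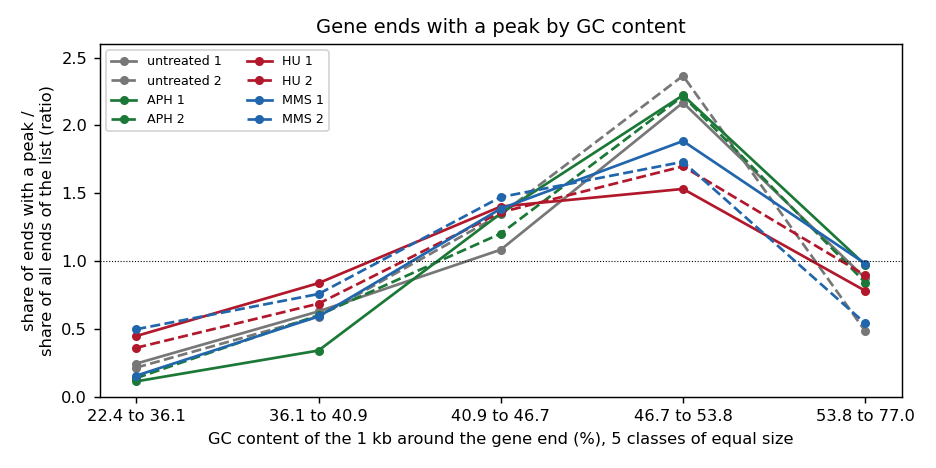
Share of gene ends with a peak in each class of GC content, divided by the share of all ends in the same list (y axis, ratio), for 5 classes of equal size by GC content of the 1 kb around the end (x axis, percent). Each line is a peak list, solid for replicate 1 and dashed for replicate 2; all 8 lines are highest in the class of 46.7% to 53.8% GC.

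By the position of their centre, 37.0% to 44.2% of end peaks lay in UTR sequence of a protein-coding gene in the 8 lists, 5.07% to 8.96% in other exons, 7.46% to 17.0% in introns and 36.3% to 41.0% outside protein-coding genes. The share in UTR sequence follows largely from the rule, since the window takes in the last 500 bp of the gene. Of the other peaks, 2.57% to 3.6% had their centre in UTR sequence.

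The third comparison asked on which side of the end the peaks lay. Among end peaks that reached the window of a single end, the centre lay beyond the end in 45.6% and 43.4% without treatment, 48.0% and 51.0% with APH, 52.2% and 52.0% with HU, and 52.8% and 54.2% with MMS. Both untreated lists were below 50% and both HU and both MMS lists above, with 125 and 83 such peaks without treatment and 265 and 203 with MMS. The mean difference from 50% was −0.103 percentage points (SD 3.83 over 8 lists; exact sign-flip permutation, p = 0.945, adjusted p = 0.945). The sign of this mean turned under 6 alternatives, the highest being 3.29 points with a fold enrichment of at least 3. At isolated ends, with no other end or start within 5 kb, the mean was 3.24 points above 50% (exact permutation, p = 0.164). There the centre lay beyond the end in 62.8% and 59.0% of 129 and 117 peaks with MMS, 54.6% and 54.4% of 1554 and 1320 with HU, and 47.9% and 46.2% of 71 and 52 without treatment.

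End peaks were compared with the other peaks of their own list. The median fold enrichment of end peaks was 2.69 and 2.63 without treatment, 2.57 and 2.70 with APH, 2.76 and 2.84 with HU, and 2.65 and 2.68 with MMS. The other peaks had 2.64 and 2.61, 2.55 and 2.67, 2.70 and 2.77, and 2.64 and 2.64. End peaks were higher in 8 of 8 lists, by 0.0386 on average (SD 0.0224; exact sign-flip permutation, p = 0.00781, adjusted p = 0.0176). The difference is small beside the range of end peaks within 1 list, which ran from 2.16 to 3.95 in HU replicate 1.

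End peaks were also wider. Their median width was 603 and 676.5 bp without treatment, 655 and 621 bp with APH, 1113 and 1072 bp with HU, and 570 and 631 bp with MMS, against 533 and 547, 560 and 554, 756 and 734, and 518 and 530 bp for the other peaks. The ratio of medians was above 1 in 8 of 8 lists, with a geometric mean of 1.23 (log2 0.30 ± 0.17, SD; exact sign-flip permutation, p = 0.00781, adjusted p = 0.0176). A wide peak reaches a window more easily than a narrow one. With only peaks whose centre lay in the window the log2 ratio was 0.07 (exact permutation, p = 0.0391).

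By the q-value, which corrects for the number of positions tested, few peaks of any kind outside HU passed 0.05. End peaks that passed numbered 3 and 1 without treatment, 3 and 4 with APH and 0 and 0 with MMS, against 2396 and 1713 with HU. They were 2.24% and 1.14% of the end peaks without treatment and 0.8% and 1.45% with APH, where 0.840% and 0.495% and then 0.544% and 1.30% of the other peaks passed. With MMS 0.168% and 0.195% of the other peaks did. The HU values are 86.2% and 70.8% of the HU end peaks, where 78.2% and 59.9% of the other HU peaks passed.

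The overlap of replicates was compared between end peaks and other peaks. An end peak overlapped a peak of the other replicate in 26.9% and 36.4% of cases without treatment, 18.1% and 22.1% with APH, 56.9% and 64.0% with HU, and 9.93% and 11.98% with MMS. For the other peaks the shares were 15.7% and 19.1%, 10.2% and 13.1%, 42.8% and 50.5%, and 5.89% and 6.86%. The difference was positive in 4 of 4 conditions, with a mean of 10.3 percentage points (SD 4.63; exact sign-flip permutation, p = 0.125, the smallest that 4 conditions can give, adjusted p = 0.184). Against other peaks of the same width class it was 4.80 points, and with the peak centre in the window 4.58 points.

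At the level of genes, 30 ends had a peak in both untreated replicates (0.157% of all ends), 60 with APH (0.314%), 1483 with HU (7.76%) and 26 with MMS (0.136%). The 1483 HU ends are 49.4% and 56.7% of the ends marked in the 2 HU lists, where 13.7% and 15.7% of all ends were marked in the other replicate. Under MMS the 26 ends are 8.10% and 11.3% of the ends of either list, against 1.21% and 1.68% of all ends.

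Few ends were found in several lists. Of the 19111 ends, 14406 had a peak in no list, 2837 in 1 list, 1484 in 2, 289 in 3, 69 in 4, 18 in 5, 2 in 6, 5 in 7 and 1 in all 8. Ends with a peak in both replicates numbered 1514 for 1 condition, 33 for 2 conditions, 5 for 3 and 1 for all 4. The lists share the input and the genome, so the counts over lists are a description with no test.

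The 26 ends found in 5 or more lists lay mostly near the tips of chromosomes, 19 of them (73.1%) within 5 Mb of a chromosome end. Of all gene ends 12.4% lie there. The share was 42.7% and 38.7% of the marked ends without treatment, 21.7% and 27.1% with APH, 18.1% and 16.5% with MMS, and 8.36% and 8.53% with HU. Of the 19, 11 lie on chromosome 17, which has 1186 of the 19111 ends. Its share of the ends near chromosome tips was not computed. The 11 lie close together, all between 0.43 and 0.89 Mb from a tip. They are not all separate, since the same peak reached the ends of TLCD3A and GEMIN4 in APH replicate 1 and MMS replicate 1.

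TRIM7, which encodes a ubiquitin ligase that binds glycogenin, was the 1 gene with an end peak in all 8 lists. It is on the minus strand and ends at position 181193924 of chromosome 5, 0.344 Mb from the chromosome end. The fold enrichment of the peak was 3.04 and 2.84 without treatment, 2.87 and 2.93 with APH, 3.00 and 3.13 with HU, and 3.17 and 2.93 with MMS. The values differ little between conditions, and treated and untreated lists overlap. The width differed more. The peak was 8899 and 2201 bp wide without treatment and 10761 and 2526 bp with APH, but 959 and 1079 bp with HU and 416 and 1099 bp with MMS.

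In 7 lists each, the ends of DIP2A, DMRT3, C17orf97, RFLNB and DOCK8 had a peak. DOCK8, a guanine nucleotide exchange factor needed by lymphocytes, ends at 465259 of chromosome 9, and DMRT3, a transcription factor of the DM domain family, ends at 991732 of the same chromosome. DOCK8 lacked an end peak in HU replicate 1 and had 2.88 and 2.62 without treatment, 2.89 and 2.84 with APH, 2.65 in HU replicate 2, and 2.95 and 2.78 with MMS. DMRT3 lacked one in HU replicate 2 and had 3.08 and 3.01, 2.71 and 3.17, 2.62 in HU replicate 1, and 3.00 and 2.56 in the same order. The HU value of DMRT3 was below both untreated values, and that of DOCK8 lay between the untreated values.

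C17orf97 and RFLNB, the latter encoding refilin B, which acts on filamin and actin bundles, face each other near the tip of chromosome 17 with their ends over 5 kb apart, at 431062 and 439978, and so are not counted as convergent. C17orf97 had 2.96 and 2.86 without treatment, 2.89 and 3.26 with APH, 2.73 and 2.74 with HU and 2.66 in MMS replicate 1. RFLNB had 2.91 and 2.71, 2.92 and 2.97, 2.68 and 2.73, and 2.94 in MMS replicate 2. In both genes the HU values were below those with APH, in lists whose depth is unknown. DIP2A, on chromosome 21 with its end at 46570015, had 3.01 and 2.69 without treatment, 3.10 and 3.18 with APH, 2.498 and 3.06 with HU and 2.99 in MMS replicate 2. Its APH replicate 1 peak was 44832 bp wide and mostly inside the gene, the widest end peak with APH, while the HU replicate 1 peak was 554 bp wide.

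TEX19, named for its expression in testis, and FN3KRP, a ketosamine kinase, each had an end peak in 6 lists, both near the other tip of chromosome 17. Further along in the order came 18 ends tied at 5 lists, of which 4 were taken by the number of conditions with both replicates and then by mean fold enrichment. PRMT2, a protein arginine methyltransferase, was one of them. Of the 12 ends taken, it had the highest mean over its lists, with 3.24 and 3.24 without treatment, 3.796 and 3.56 with APH and 2.74 in MMS replicate 1, with none with HU. IQSEC3, an exchange factor for ARF proteins, had 3.03 and 3.09 without treatment, 3.13 and 3.20 with APH and 2.98 in MMS replicate 2, and also none with HU. TMEM262 and RANGRF, which encodes a factor that binds the GTPase Ran, showed the other pattern. They had no peak in either untreated list and had one in both HU lists, at 3.11 and 3.26 for TMEM262 and 3.04 and 3.40 for RANGRF. These 2 ends lie 65.1 and 8.29 Mb from the nearest chromosome end, while the other 10 lie within 1 Mb.

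**Figure D4:**
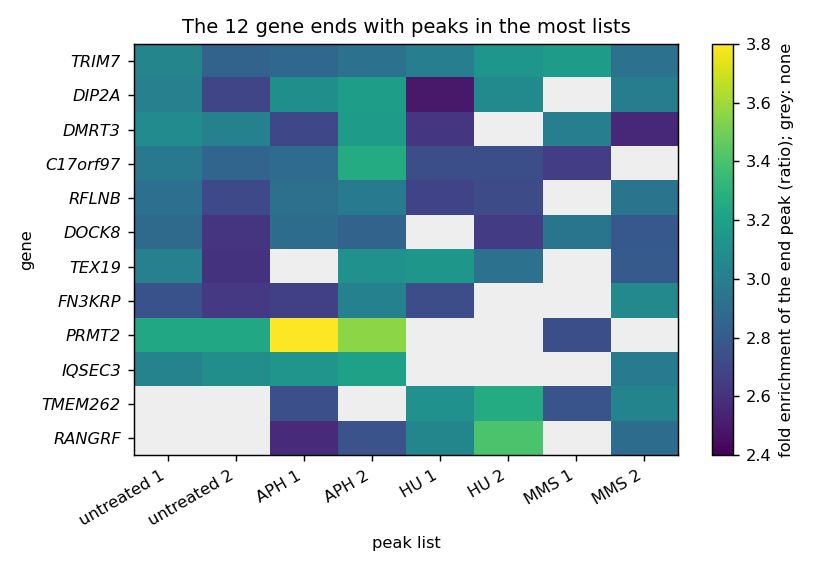
Fold enrichment of the end peak (colour, ratio as the peak caller gave it; light grey where there is no end peak) at the 12 gene ends with peaks in the most lists (rows) in the 8 peak lists (columns), with 4 of the 18 ends tied at 5 lists taken by the number of conditions with both replicates and then by mean fold enrichment. TRIM7 is filled in all 8 lists, PRMT2 and IQSEC3 are empty with HU, and TMEM262 and RANGRF are empty without treatment.

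The strongest ends found in both replicates differed between conditions. In untreated cells they were C8orf33, PRMT2 and IQSEC3. C8orf33, on chromosome 8 with its end at 145066685, had 3.94 and 3.42 without treatment and 3.45 and 3.41 with APH, and no end peak in the HU and MMS lists. Under APH they were PRMT2, C8orf33 and SLC6A12, a betaine and GABA transporter, which had 3.22 and 3.45 with APH and 3.09 and 3.02 without treatment. All 4 of these genes end within 1 Mb of a chromosome end. Under HU they were COPZ2, a coatomer subunit, LRRC8E, a subunit of volume-regulated anion channels, and the read-through gene PEDS1-UBE2V1. COPZ2 had 3.95 and 3.39 with HU, LRRC8E 3.56 and 3.45, and PEDS1-UBE2V1 3.40 and 3.58, and none of the 3 had an end peak in an untreated list, while COPZ2 had one in APH replicate 1 and LRRC8E in APH replicate 2 and MMS replicate 2. These lie 35.2, 7.90 and 14.4 Mb from the nearest chromosome end. Under MMS they were TLCD3A with 2.99 and 3.35, TRIM7 and TMEM262.

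The widest end peaks were 27945 bp at KANK1 without treatment, 44832 bp at DIP2A with APH, 28115 bp at CDC25A with HU and 3722 bp at RFLNB with MMS. CDC25A encodes a phosphatase that activates cyclin-dependent kinases and is a target of the checkpoint. Its end on chromosome 3 had peaks in both HU lists alone, at 3.05 and 3.21, and in replicate 2 the peak was 4382 bp wide. The wide peak of HU replicate 1 lay wholly beyond the gene, with its centre 14196 bp past the end, and only reached into the window. KANK1 had end peaks of 2.88 and 2.83 without treatment and 2.87 and 3.17 with APH, and none with HU or MMS.

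A further comparison set convergent ends, with the end of a gene on the other strand within 5 kb and neither gene inside the other, against all other ends. There were 4052 convergent and 15059 other ends. A peak was found at 0.716% and 0.444% of convergent ends without treatment (29 and 18 ends), 2.20% and 1.48% with APH, 18.5% and 17.1% with HU, and 2.76% and 1.75% with MMS (112 and 71 ends). At the other ends the shares were 0.757% and 0.498%, 2.04% and 1.53%, 15.0% and 12.8%, and 1.39% and 1.06%. The ratio of the 2 shares was thus 0.945 and 0.892 without treatment, 1.08 and 0.965 with APH, 1.24 and 1.33 with HU, and 1.99 and 1.65 with MMS. Both MMS lists had the highest ratios, both HU lists came next, and the untreated and APH lists lay near 1.

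Over all 8 lists the mean log2 ratio was 0.28 ± 0.41 (SD; exact sign-flip permutation, two-sided, p = 0.102, adjusted p = 0.183), with 5 of 8 lists above 0. It depended on what was counted. With the peak centre in the window it was 0.44 and with transcript ends 0.42, both above 0 in all 8 lists (exact permutation, p = 0.00781 each), while at a fold enrichment of at least 3 it was −0.0070 (exact permutation, p = 1.00). Treatments were not tested against each other here.

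Convergent ends also differ from the others in composition and in the number of neighbours. Their median GC content was 49.3%, against 42.4% for the other ends, and they had a median of 20 gene ends within 500 kb, against 12. With shares standardised over 5 classes of GC content, the ratio was 1.70 and 1.71 with MMS, 1.20 and 1.23 with HU and between 0.828 and 0.912 in the untreated and APH lists. With 5 classes of gene density it was 1.76 and 1.62 with MMS, 1.05 and 1.101 with HU and between 0.771 and 0.940 in the others. Where each pair was counted once, by the end on the plus strand, the MMS ratios were 2.02 and 1.58. A single peak can mark both ends of a close pair, and between 5.43% and 9.25% of end peaks reached more than 1 end.

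Convergent ends were then divided into those whose gene tails overlap and those with a gap, a division made after the values were seen. Of the 1533 ends with overlapping tails, 3.65% and 2.41% had a peak with MMS (56 and 37 ends), against 2.22% and 1.35% of the 2519 ends with a gap. Of 10560 isolated ends, 1.22% and 1.11% had one. In untreated cells the share was 0.261% and 0.391% at overlapping tails (4 and 6 ends) and 0.672% and 0.492% at isolated ends. Under HU both kinds of convergent end had close values, at 18.2% and 17.0% with overlapping tails and 18.7% and 17.1% with a gap, above the 14.7% and 12.4% of isolated ends. Isolated ends had a median GC content of 40.9%, against 48.4% with overlapping tails and 49.95% with a gap. Their median number of gene ends within 500 kb was 10, against 20 and 19. The classes were not matched for either. When overlapping tails were counted with the other ends, the MMS ratios of convergent to other ends were 1.41 and 1.18. Tandem ends, with the start of a gene on the same strand within 5 kb beyond, had a peak in 2.32% and 1.25% with MMS and 16.9% and 15.2% with HU.

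**Figure D5:**
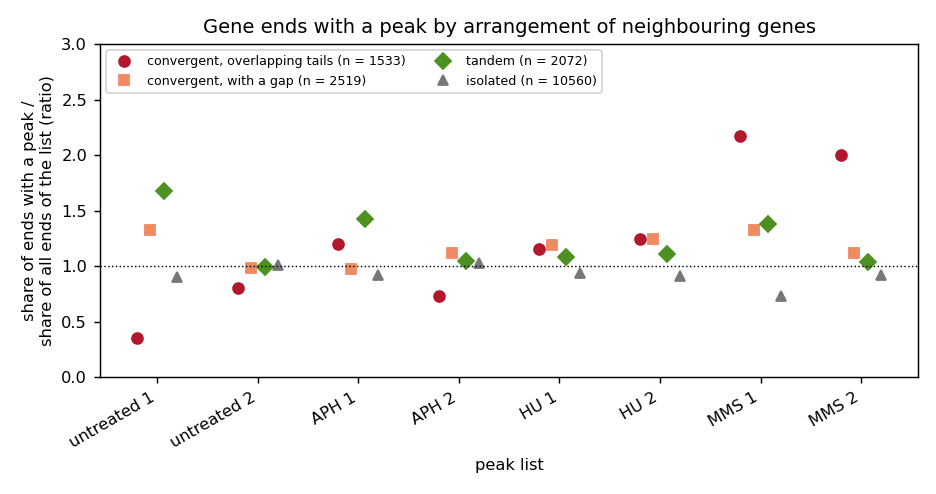
Share of gene ends with a peak in each arrangement of neighbouring genes, divided by the share of all ends in the same list (y axis, ratio; 1 dotted), in the 8 peak lists (x axis). Ends with overlapping convergent tails stand at 2.17 and 2.00 in the MMS lists and at 0.349 and 0.804 in the untreated lists. The classes are not matched for GC content or gene density.

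Of 1910 mutual convergent pairs, 748 had a peak at either end in at least 1 list and 26 in 4 or more. Of all single ends, 24.6% had a peak in at least 1 list and 0.497% in 4 or more. A pair has 2 ends that can be marked, so its share is higher for that reason alone, and the counts of pairs were not tested. The pair found in the most lists was TLCD3A and GEMIN4, a component of the SMN complex, on chromosome 17, whose ends at 742968 and 744421 leave a gap of 1453 bp. A peak lay at one or both ends in 7 lists, all but HU replicate 2. In untreated replicate 1, APH replicate 1 and MMS replicate 1 both ends had one, and in the APH and MMS lists of these a single peak of 5331 and 3296 bp covered both. The values at TLCD3A were 2.85 in untreated replicate 1, 2.70 and 2.76 with APH, and 2.99 and 3.35 with MMS, with none with HU.

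The other pairs had peaks in 4 or 5 lists. PHAF1, which acts in autophagy, and the glycosyltransferase gene B3GNT9 have overlapping tails on chromosome 16, and both HU lists and APH replicate 2 had a peak reaching both ends. PSME3IP1, which encodes a partner of a proteasome activator, had peaks in 5 lists, while its partner CPNE2, a copine, had one in HU replicate 1 only. BYSL, a ribosome assembly factor, and CCND3, the gene of cyclin D3, have ends 1888 bp apart on chromosome 6. The end of CCND3 had a peak in both HU lists, at 2.86 and 2.89, and in both MMS lists, at 2.56 and 2.63, and in no untreated or APH list. TMEM262 had peaks in 5 lists within the overlap with ZFPL1, whose own end had none. ZFPL1 starts at 65084210, close to the TMEM262 end at 65084979. The centres of these peaks thus lie inside ZFPL1, nearer to its start than to its end. NOP9, another ribosome assembly factor, had peaks at its end in 4 lists, and its partner CIDEB in MMS replicate 2.

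Gene lists were counted against the share of all ends, and the members named here were chosen after their values were seen. None of their members had an end peak in 4 or more lists, and no member of the 5 lists had one in an untreated or APH list. Of 29 B-lineage genes, 8 and 7 had an end peak with HU (27.6% and 24.1%, against 15.7% and 13.7% of all ends). The transcription factor genes IRF4, PAX5 and IRF8 had one in both HU lists. Of 26 genes of other tissues, 1 and 2 had an end peak with HU (3.85% and 7.69%), with VIL1, the villin gene of the gut, in both lists. The numbers are small, and GC content and gene density, which move with the share of marked ends, were not matched between the lists.

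Of 20 genes of ATR signalling and fork protection, 6 and 4 had an end peak with HU (30% and 20%, against 15.7% and 13.7% of all ends) and none had one in both replicates, where 7.76% of all ends did. Among them were H2AX, which encodes the histone itself, and TIMELESS in replicate 1, and TIPIN and BLM in replicate 2. Of 20 genes of cleavage, polyadenylation and termination, 3 and 3 had one with HU, which at 15% each is near the share of all ends. CLP1 and CPSF7, both of the cleavage machinery, had one in both HU lists, and CLP1 also in MMS replicate 2. Of the 4 genes whose terminators are used in studies of R-loops, AKIRIN1 had an end peak in HU replicate 1, and ACTB, ENSA and GEMIN7 had none in any list.

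Of 77 genes taken by name as cytoplasmic ribosomal protein genes, 19 and 18 had an end peak with HU (24.7% and 23.4%, against 15.7% and 13.7% of all ends). With MMS 5 and 2 had one (6.49% and 2.6%, against 1.68% and 1.21%). With APH 2 and 1 had one (2.6% and 1.30%), near the 2.07% and 1.52% of all ends, and without treatment 0 and 0, where 0.748% and 0.487% of all ends had one. RPL19 and RPS14 had one in 3 lists each. RPL3L, a paralog that the names also took in, had one in both HU lists. Of 69 replication-dependent histone genes, whose transcripts end in a stem-loop without polyadenylation, 1 and 3 had one with HU (1.45% and 4.35%). A peak that reaches a start window is not an end peak, so the end of a very short gene can hardly have one. The lengths of the histone genes were not compared with those of other genes, so the rule itself may lower their share. Of 249 ZNF genes of chromosome 19, 14 and 6 had one with HU (5.62% and 2.41%), and both groups lie below the 15.7% and 13.7% of all ends. These 3 groups were added after other results were seen.

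The share of ends with a peak is given by chromosome as a description. Under HU the mean of the 2 lists was highest on chromosome 17, at 22.3%, chromosome 15, at 21.8%, and chromosome 1, at 19.97%, and lowest on chromosome 4, at 5.09%. In untreated cells chromosome 21 was highest, at 2.05%, followed by chromosome 17, at 1.56%, and chromosome 9, at 1.42%. Chromosome 21 was low with HU, at 7.73%.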

How the data were processed

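Peak lists of 8 γH2AX ChIP-seq libraries were analysed. The common input itself was not analysed here. Before deposit, the authors aligned with Bowtie2 to GRCh38, discarded duplicates and poorly mapped reads, ran MACS2 in broad mode per replicate against this input, and dropped blacklisted regions. Tool versions are not given in the sources used here. The deposited columns used were the fold enrichment, a ratio, and the −log10 p-value and −log10 q-value of each peak. Depth is unknown.

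Gene ends came from GENCODE release 44 on the same build. Members, gene lists and tests were chosen with earlier results of these data known. Named ends were the 12 found in the most lists (ties by the number of conditions with both replicates, then by mean fold enrichment), the 3 strongest in both replicates and the widest of each condition, and the 6 convergent pairs found in the most lists (ties likewise). The rule also took members of fixed gene lists found in 4 or more lists. None was, and those named were chosen after their values were seen. Expected overlaps were computed exactly from peak widths, or on points every 100 bp for 1 Mb, GC (2%) and chromosome bins. Tests were exact permutations over lists with Benjamini-Hochberg adjustment over 9 tests. The study reports independent biological replicates and, for each genotoxin, independent treatments, while the labels only number the replicates. How the untreated pair was made is not described further, so the source of its spread is not known. Calculations were tested on simulated lists (Python 3, numpy, pandas).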

Additional observations from a re-analysis of the deposited data

Results flagged for a closer look

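In 4 comparisons both replicates of one condition moved one way and both of another the opposite way, and none of these differences was tested. The log2 ratio of convergent to other ends was below 0 in both untreated lists and above 0 in both HU and both MMS lists, with a difference of means, untreated minus treated, of −0.49 for HU and −0.98 for MMS. With the peak centre in the window it was above 0 in the untreated lists too. The share of end peaks with their centre beyond the gene end was below 50% in both untreated lists and above it in both HU and both MMS lists, with a difference, untreated minus treated, of −7.62 percentage points for HU and −9.02 points for MMS. The untreated values rest on 125 and 83 peaks, and the pattern did not hold in other counts. By bases in place of centres, 51.9% lay beyond the end in untreated replicate 2 and 49.6% in MMS replicate 1. At a fold enrichment of at least 3, 55.6% of centres lay beyond it in untreated replicate 2. Within 10 kb of ends with no neighbour, 57.6% and 56.3% of centres lay beyond the end without treatment and 48.0% and 50.2% with MMS.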

How the results depend on the processing

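Of 95 comparisons of a result with an alternative setting, 77 kept the direction and the side of the threshold of 0.05, as did 66 of 72 comparisons with 1 replicate left out. These counts include comparisons that could not pass the threshold by design. They are all 10 and 8 of replicate sharing, those of treated with untreated lists without an untreated replicate, and the replicate block. Convergent ends at a q-value of at most 0.05, counted as kept, rest on 2 lists and could not pass either. For the excess of peaks at gene ends, the difference from starts, the fold enrichment and the width, the exception was a q-value of at most 0.05, which left the 2 HU lists, where the exact permutation test cannot go below p = 0.5. The log2 values were then 1.58 for ends and 1.54 for ends over starts, the fold enrichment differed by 0.0345 and the log2 width ratio was 0.63. Shares and counts of treated against untreated lists could not be computed there. The share of peaks at ends, treated minus untreated, turned to −2.13 points at a fold enrichment of at least 3 and to −0.0767 with the peak centre in the window, and ranged from −0.221 (without untreated replicate 2) to 0.550 (without untreated replicate 1) with 1 replicate left out. It was −0.0143 and −0.0113 without HU replicate 1 or 2. The mean percent beyond the end minus 50 turned to 1.02 for the stronger 50% of peaks, 3.29 at a fold enrichment of at least 3, 0.711 for equal numbers, 2.36 under the q-value, 0.842 with windows of 1 kb and 3.24 at isolated ends, and ranged from −0.716 to 0.829 with 1 replicate left out, being above 0 without untreated replicate 1 or 2 or APH replicate 1. The log2 ratio of convergent to other ends passed the threshold with windows of 1 kb (0.35), the centre in the window (0.44), transcript ends (0.42), a partner within 10 kb (0.31) and downstream partners only (0.25), turned to −0.0070 at a fold enrichment of at least 3 over 7 lists, and ranged from 0.18 to 0.35 with 1 replicate left out. Its value at ends with no start within 5 kb, 0.28, was chosen after seeing the data. The difference in the percent of gene ends with a peak ranged from 3.42 (without HU replicate 1) to 6.32 with 1 replicate left out. With a replicate block, the labels' replicate numbers must give the same means, 0.165 and 5.36 points, and 2 numbers cannot go below p = 0.5 in the exact permutation test, so the block says nothing on stability. The share of peaks at ends differed by −0.139 points in number 1 and 0.468 in number 2, and the percent of ends with a peak by 5.74 and 4.98 points. The labels do not say that a number marks a shared day, and 2 numbers are too few to check it.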
